A study of Mus musculus with 8 samples.

Results

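The genes described here build and run the DNA replication machinery, and their RNA was followed in intestinal organoids. They are 38 members chosen by name: the origin recognition complex, the licensing factors, the MCM helicase and its activators, the polymerases with their primase, the sliding clamp and its loader, the single-strand binding complex, and the enzymes that finish Okazaki fragments. All 38 were found by mouse symbol among the 21757 genes of the mouse count table, and all 38 by human symbol among the 60237 genes of the knockdown tables. The rule itself uses symbols and no measured value, but the members were chosen with earlier results of these data known.

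Polyadenylated RNA was sequenced with a custom form of Smart-seq2, a full-length cDNA method whose standard form keeps no strand information. In the first experiment, 2 libraries of Ctnnb1-ex3 organoids were compared with 2 libraries of WT organoids, both grown from mouse small intestine. Ctnnb1-ex3 names an allele of the β-catenin gene, the transcriptional arm of Wnt signalling, and the name points to its exon 3, the exon that carries the sites through which the protein is marked for destruction. The media differed with the genotype: Ctnnb1-ex3 organoids received Noggin and EGF, while WT organoids also received Wnt3a and R-spondin1, so genotype and medium cannot be told apart. In the second experiment, 2 libraries of organoids with a short hairpin against Prmt1 (sh-Prmt1) were compared with 2 libraries of organoids with a scrambled hairpin (sh-scramble). Prmt1 is the main enzyme that adds asymmetric dimethyl marks to arginines. The labels call these organoids mouse, but every gene identifier in their tables is human, so the species of the cells and the medium they grew in are not established here. The labels do not say how the allele or the hairpins were delivered, nor whether replicate libraries came from separate cultures or animals, so a p-value here reflects how far 2 libraries of a group lie apart, and that spread may be technical.

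Replication origins are licensed once per cell cycle. The origin recognition complex binds DNA, and Cdc6 and Cdt1 then place the ring-shaped MCM2-7 helicase on it, while geminin binds Cdt1 to prevent a further round. When S phase starts, Cdc45 and the GINS complex join MCM2-7 into the active helicase, polymerase α and primase lay down primers, and polymerases ε and δ extend them with the PCNA clamp. Many of these genes are transcribed by E2F factors as cells leave quiescence, and in the intestine they are known as marks of the dividing cells of the crypt.

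The mouse libraries held 6015933 and 3683169 counts for Ctnnb1-ex3, and 4631527 and 2951887 counts for WT. The knockdown libraries held 39608249 and 53193449 estimated counts for sh-Prmt1, and 39736404 and 45888287 for sh-scramble. A floor of 3 counts corresponded to 0.451 to 1.14 CPM (counts scaled to library size) in the mouse libraries and to 0.0528 to 0.0809 CPM in the knockdown libraries, and the members stood above it throughout. Levels below are CPM scaled with TMM, a normalization that assumes most genes are unchanged. Fold changes are from edgeR's quasi-likelihood test fitted to all genes of an experiment, and a gene was called at a Benjamini-Hochberg adjusted p under 0.05. In bulk RNA, fewer cells that express a gene and less RNA per cell cannot be told apart. All 10 markers of intestinal epithelium were detected in the mouse libraries and in the knockdown libraries.

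Sequences upstream of the members were examined first, since E2F sites are a textbook feature of such genes. RefSeq promoters on GRCm38.p6, running from 250 bases before to 50 after each start, were at hand for 30 of the 38 mouse members. One of the E2F words TTTGGCGC, TTTCCCGC, TTTCGCGC or TTTGCCGC stood on either strand in 13 of these 30 (43.3%), against 2.61% of all 27025 genes in the promoter table and 4.54% of its 9737 genes that were tested for genotype. The stretches around the words are printed for the 9 members in which one lay wholly before the start, so that their spelling and spacing can be compared. Capitals mark them, and words on opposite strands overlap in Mcm5 and Mcm6. Each line runs 5′ to 3′ along the gene's strand.

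Cdc6 (chr11:98907998-98908035, plus strand): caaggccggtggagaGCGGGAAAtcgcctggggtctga
Gins3 (chr8:95633503-95633540, plus strand): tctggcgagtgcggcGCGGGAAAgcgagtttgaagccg
Mcm5 (chr8:75109341-75109382, plus strand): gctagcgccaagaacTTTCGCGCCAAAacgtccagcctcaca
Mcm6 (chr1:128359730-128359830, minus strand): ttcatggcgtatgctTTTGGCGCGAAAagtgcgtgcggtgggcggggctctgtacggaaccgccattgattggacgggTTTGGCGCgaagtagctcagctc
Mcm7 (chr5:138172026-138172063, minus strand): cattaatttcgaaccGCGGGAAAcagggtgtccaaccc
Orc1 (chr4:108579412-108579449, plus strand): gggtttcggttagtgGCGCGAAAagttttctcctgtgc
Orc3 (chr4:34614961-34614998, minus strand): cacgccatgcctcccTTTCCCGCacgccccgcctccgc
Pola1 (chrX:93632271-93632308, minus strand): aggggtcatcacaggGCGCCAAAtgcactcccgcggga
Rfc3 (chr5:151651196-151651233, minus strand): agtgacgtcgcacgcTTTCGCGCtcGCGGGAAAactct

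The word began 27 bases before the start in Orc1 and 41 bases before it in Gins3 and in Orc3, and Mcm6 held 3 words in the stretch shown. Cdt1, Lig1, Mcm3 and Pold1 also held a word in their window. The other motifs searched gave smaller contrasts. CCAAT, the NF-Y box, stood in 66.7% of the member promoters, against 41.1% of all genes in the table and 43.1% of those tested. TTTGAA, the core of the cell cycle homology element, stood in 13.3%, against 20.2% of all genes and 14.6% of those tested. CTTTGAT, a TCF/LEF word, stood in 0 of the 30 member promoters, against 4.29% of all genes in the table, and these letters were looked for in this window alone. A match is a string of letters and does not show that a factor binds.

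In Ctnnb1-ex3 organoids most replication genes were higher than in WT organoids. All 38 members passed the filter on low counts. Of these, 28 rose, Orc3 fell, and 9 were not called, while over all 12976 genes tested 40.8% were called, 20.3% higher and 20.5% lower. The median log2 fold change was 0.79 over the members and 0.02 over all genes tested. Summed over the members, the level was 4191 and 4377 CPM in the Ctnnb1-ex3 libraries and 2887 and 2719 CPM in the WT libraries, a ratio of means of 1.53. In 31 members both Ctnnb1-ex3 libraries lay above both WT libraries, an arrangement found in 38.1% of all genes tested, and in 2 members (Orc3 and Orc4) both lay below, as in 35.6% of all genes tested.

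The call of 15 of the 29 held under every alternative setting tried, among them DESeq2's test, other scalings and loess offsets, which let the scaling vary with a gene's level: Cdc6, Cdt1, Mcm3, Mcm4, Mcm5, Mcm7, Gins1, Gins3, Pola1, Pole, Pold1, Rfc1, Rpa1, Rpa2 and Lig1. The rest lost their call in a fit without 1 of the WT libraries, where the spread within groups comes from the 2 Ctnnb1-ex3 libraries alone. From 0.74 with all libraries, the log2 fold change of Mcm2 went to 0.72 and 0.71 without WT replicates 1 and 2. That of Orc2 went from 0.81 to 1.20 and 0.50. Without WT replicate 1, 19 members were called, all higher, and 10 lost their call, at log2 fold changes of -0.38 to 0.77, while calls over all genes tested fell to 21.6% (9.65% higher), against 40.8% with all libraries. Without WT replicate 2, 16 were called, all higher, and 13 lost their call, at log2 fold changes of -0.47 to 1.40, with 18.4% of all genes tested called (7.77% higher). None of the 29 called members turned its sign under any alternative. Of the members not called, Orc5, Gmnn, Cdc45 and Pcna did, at values that were not called either.

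**Figure D1:**
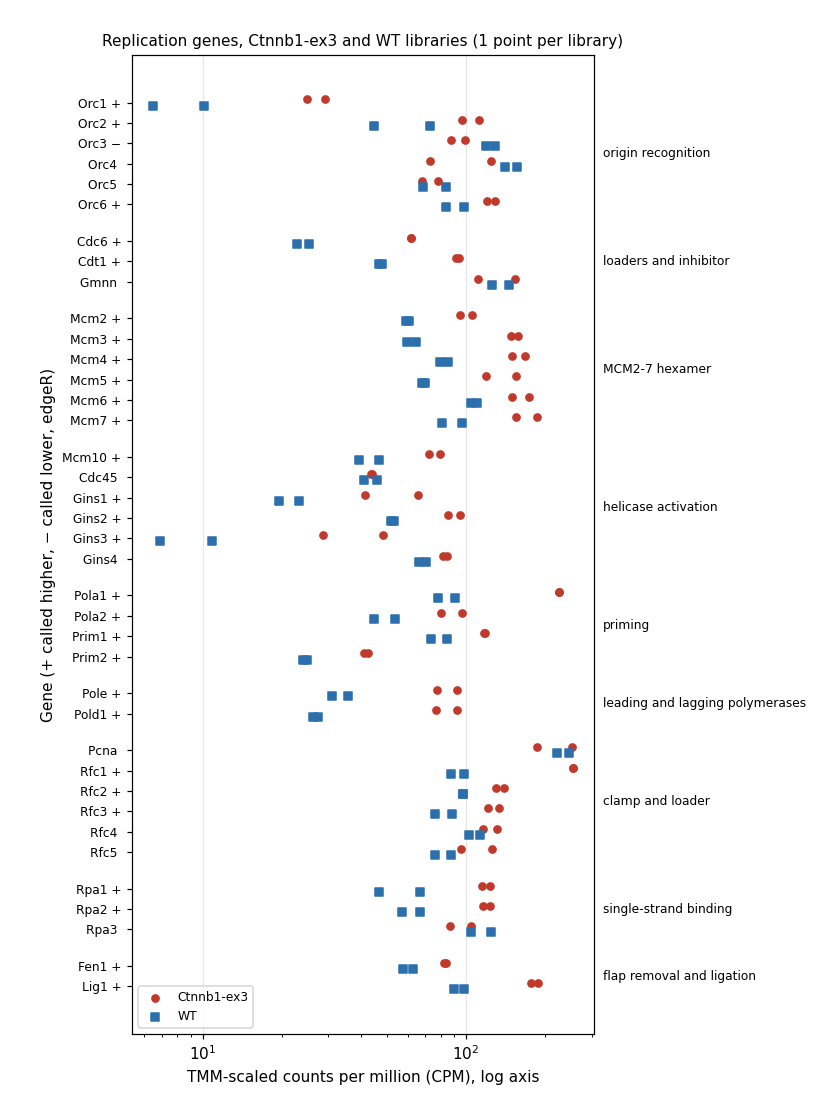
Level of each of the 38 replication genes in the 2 Ctnnb1-ex3 libraries (red circles) and the 2 WT libraries (blue squares), as TMM-scaled CPM on a log axis, ordered by role, 1 point per library. The circles lie right of the squares in 31 genes, Orc3 and Orc4 show the opposite order, and 5 genes overlap.

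The origin recognition complex was the most divided group. Of its 6 subunits, 3 rose, Orc3 fell and 2 were not called, and the summed level was 551 and 489 CPM in Ctnnb1-ex3, against 550 and 463 CPM in WT. Orc1, the ATPase subunit whose level is known to be tied to the cell cycle, had 29.0 and 24.9 CPM in Ctnnb1-ex3, against 10.1 and 6.47 CPM in WT. Both Ctnnb1-ex3 libraries were higher, by a log2 fold change of 1.67 ± 0.36 (SE; adjusted p = 0.00827), and 1.40 without WT replicate 2, where the adjusted p was 0.0637. Orc2, with 112 and 96.8 CPM in Ctnnb1-ex3 and 73.0 and 44.5 CPM in WT, rose by 0.81 ± 0.22 (adjusted p = 0.0205), with 0.50 and an adjusted p of 0.197 without WT replicate 2. Orc6, a subunit needed to load MCM2-7, had 120 and 128 CPM in Ctnnb1-ex3 and 98.5 and 84.1 CPM in WT, a rise of 0.44 ± 0.14 (adjusted p = 0.0385). That call was lost without either WT library (log2 fold changes of 0.53 without replicate 1 and 0.32 without replicate 2), with DESeq2 (adjusted p = 0.149) and with no filter (adjusted p = 0.0766).

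Orc3 and Orc4, subunits of the body of the complex, lay lower in both Ctnnb1-ex3 libraries. Orc3 had 98.9 and 87.6 CPM in Ctnnb1-ex3, against 128 and 119 CPM in WT. Both Ctnnb1-ex3 libraries lay below both WT libraries, as in 35.6% of all genes tested. The log2 fold change was -0.41 ± 0.14 (adjusted p = 0.0439). That call did not hold without WT replicate 1 (-0.38), without WT replicate 2 (-0.47), with upper-quartile scaling (-0.17), with DESeq2 (-0.43), with no filter (-0.39) or with loess offsets (-0.20). Orc4 had 124 and 73.0 CPM in Ctnnb1-ex3, against 156 and 140 CPM in WT. It stood at -0.58 ± 0.23 (adjusted p = 0.0788), and 1 library decided that value: without Ctnnb1-ex3 replicate 1 it was -1.04 and called lower (adjusted p = 6.74e-11). It was also called lower with the replicate number as a block (-0.61, adjusted p = 0.00989) and with no filter (-0.56, adjusted p = 0.017). With the block, 3503 of all 12976 genes tested were called lower, against 2654 without it. Orc5 had 67.8 and 78.3 CPM in Ctnnb1-ex3 and 84.0 and 68.5 CPM in WT, which overlap.

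The licensing factors Cdc6 and Cdt1 rose, while the gene of geminin, which binds Cdt1, was not called. Cdc6, the ATPase that recruits the helicase with Cdt1, had 61.8 and 61.9 CPM in Ctnnb1-ex3, against 25.3 and 22.8 CPM in WT. It rose by a log2 fold change of 1.35 ± 0.20 (adjusted p = 0.00157). Cdt1 had 94.4 and 91.96 CPM in Ctnnb1-ex3 and 48.1 and 46.8 CPM in WT, a rise of 0.97 ± 0.14 (adjusted p = 0.00153). In both genes the replicate libraries lay close together and the groups far apart. Gmnn, which encodes geminin, had 111 and 153 CPM in Ctnnb1-ex3, against 125 and 146 CPM in WT, a log2 fold change of -0.04 ± 0.18 (adjusted p = 0.876). The ratio of Cdt1 to Gmnn CPM was therefore 0.850 and 0.601 in the Ctnnb1-ex3 libraries, and 0.384 and 0.320 in the WT libraries. That ratio follows the 2 genes' read numbers and not their transcript numbers, since the mouse table gives no lengths.

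All 6 genes of the MCM2-7 helicase rose, with log2 fold changes of 0.59 to 1.30 and a median of 0.93. Their summed level was 815 and 943 CPM in Ctnnb1-ex3, against 482 and 457 CPM in WT, a ratio of 1.87. Mcm3 (GRCm38 chromosome 1, 20802968 to 20820312, minus strand) had 148 and 157 CPM in Ctnnb1-ex3 and 59.9 and 64.7 CPM in WT, the largest rise of the 6 at 1.30 ± 0.13 (adjusted p = 0.000404). Mcm6 had the smallest, with 149 and 173 CPM in Ctnnb1-ex3 and 110 and 105 CPM in WT (0.59 ± 0.14, adjusted p = 0.0141). The other 4 lay between them. Mcm2 had 94.8 and 106 CPM in Ctnnb1-ex3 and 60.6 and 59.3 CPM in WT, a rise of 0.74. Mcm7 had 154 and 185 CPM in Ctnnb1-ex3 and 96.9 and 81.0 CPM in WT, a rise of 0.92. These 2 subunits and the remaining pair showed rises of similar size. Mcm4 had 149 and 167 CPM in Ctnnb1-ex3 and 85.2 and 79.5 CPM in WT (0.94), and Mcm5 had 119 and 154 CPM in Ctnnb1-ex3 and 70.0 and 68.1 CPM in WT (0.98). In all 6 both Ctnnb1-ex3 libraries lay above both WT libraries, as in 38.1% of all genes tested. Mcm6 lost its call without WT replicate 1, at 0.59 with an adjusted p of 0.132, and without WT replicate 2, at 0.54 with 0.161. The same held for Mcm2, at 0.72 with an adjusted p of 0.0558 and at 0.71 with 0.0625.

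Among the genes that turn MCM2-7 into the active helicase, 4 of 6 rose. Gins3 had the largest fold of any member, with 28.7 and 48.3 CPM in Ctnnb1-ex3, against 10.8 and 6.85 CPM in WT. Its log2 fold change was 2.08 ± 0.39 (adjusted p = 0.0045), and 5.46% of all genes tested had a larger one. Gins1 had 65.8 and 41.4 CPM in Ctnnb1-ex3 and 23.3 and 19.4 CPM in WT (1.33 ± 0.28, adjusted p = 0.00785). The subunits of this 4-part complex did not share a single fold. Gins2 had 95.1 and 85.3 CPM in Ctnnb1-ex3 and 52.0 and 53.3 CPM in WT, a rise of 0.78 ± 0.14. Gins4 had 81.6 and 84.5 CPM in Ctnnb1-ex3 against 66.5 and 70.4 CPM in WT, at 0.28 ± 0.13 (adjusted p = 0.131). Mcm10, an initiation factor that helps the helicase start, had 79.7 and 72.2 CPM in Ctnnb1-ex3 and 46.7 and 39.2 CPM in WT, a rise of 0.81 ± 0.17. Without WT replicate 1 Gins2 stood at 0.73 (adjusted p = 0.0567), and without WT replicate 2 Mcm10 stood at 0.69 (adjusted p = 0.0949). Cdc45, the partner that GINS joins, had 43.9 and 43.7 CPM in Ctnnb1-ex3 and 46.0 and 41.1 CPM in WT. Its log2 fold change was 0.00 ± 0.19 (adjusted p = 0.992), and its WT libraries lay on either side of the Ctnnb1-ex3 libraries.

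The polymerases were among the members with the largest rises. Pold1, the catalytic subunit of polymerase δ, had 92.6 and 76.8 CPM in Ctnnb1-ex3, against 27.4 and 26.2 CPM in WT (1.66 ± 0.18, adjusted p = 0.000489). Pole, that of polymerase ε, had 92.6 and 77.8 CPM in Ctnnb1-ex3 and 30.9 and 35.8 CPM in WT (1.37 ± 0.18, adjusted p = 0.00101). Together they came to 2.83 times the WT level. Pola1, the catalytic subunit of polymerase α, had 225 and 225 CPM in Ctnnb1-ex3 and 90.9 and 78.4 CPM in WT (1.40 ± 0.15, adjusted p = 0.000441). All 4 genes of the polymerase α-primase complex rose, with smaller folds for its accessory and primase subunits, a difference that was not tested. Pola2 had 96.6 and 80.7 CPM in Ctnnb1-ex3 and 53.6 and 44.9 CPM in WT, a rise of 0.84 ± 0.17. Prim2 had 41.0 and 42.4 CPM in Ctnnb1-ex3 and 24.9 and 24.0 CPM in WT (0.77 ± 0.23). Prim1 had 118 and 117 CPM in Ctnnb1-ex3 and 84.7 and 73.4 CPM in WT (0.57 ± 0.14). In all 3 both Ctnnb1-ex3 libraries lay above both WT libraries, as in 38.1% of all genes tested. But their calls were lost without WT replicate 2 (0.72, 0.73 and 0.46 in that order). Those of Prim2 and Prim1 were also lost without WT replicate 1 (0.77 and 0.65). With DESeq2 the adjusted p was 0.0702 for Prim2 and 0.0528 for Prim1, with no filter it was 0.0772 for Prim2, and with loess offsets Prim2 stood at 0.47 (adjusted p = 0.127).

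Pcna and its loader were uneven. Rfc1, the large subunit of the clamp loader, had 254 and 255 CPM in Ctnnb1-ex3, against 98.5 and 87.9 CPM in WT (1.45 ± 0.15, adjusted p = 0.000404). The small subunits had smaller folds. Rfc3 had 122 and 134 CPM in Ctnnb1-ex3 and 88.6 and 76.5 CPM in WT, a rise of 0.62 ± 0.14 (adjusted p = 0.0104). Rfc2 had 140 and 130 CPM in Ctnnb1-ex3 and 97.6 and 97.0 CPM in WT, a rise of 0.47 ± 0.13 (adjusted p = 0.022). Both were higher in each Ctnnb1-ex3 library than in each WT library, as were 38.1% of all genes tested. So were the 2 small subunits that were not called. Rfc5 had 95.6 and 126 CPM in Ctnnb1-ex3 and 87.7 and 76.5 CPM in WT (0.42 ± 0.17, adjusted p = 0.0813). Rfc4 had 116 and 131 CPM in Ctnnb1-ex3 and 113 and 103 CPM in WT (0.19 ± 0.14, adjusted p = 0.311). Rfc3 and Rfc2 lost their calls without WT replicate 1 (0.71 and 0.45) and without WT replicate 2 (0.51 and 0.45), and Rfc2 also with DESeq2 (adjusted p = 0.104). Rfc4 and Rfc5 were called higher with upper-quartile scaling (0.42 and 0.65), as was Gins4 (0.52), under a scaling that put the median of all genes tested at 0.26. They were also called higher with loess offsets (Rfc4 at 0.41, adjusted p = 0.0416, and Rfc5 at 0.58, adjusted p = 0.0264), and Rfc5 without Ctnnb1-ex3 replicate 1 (0.59). Pcna, the clamp itself and a common marker of dividing cells, had 187 and 253 CPM in Ctnnb1-ex3 and 221 and 246 CPM in WT, a log2 fold change of -0.09 ± 0.19 (adjusted p = 0.734). Its WT libraries lay between the Ctnnb1-ex3 libraries.

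Of the single-strand binding complex, 2 of 3 genes rose. Rpa1, the large subunit, had 115 and 123 CPM in Ctnnb1-ex3 and 66.8 and 46.8 CPM in WT, a rise of 1.04 ± 0.18 (adjusted p = 0.00322). Rpa2 had 123 and 116 CPM in Ctnnb1-ex3 and 67.0 and 57.1 CPM in WT, a rise of 0.94 ± 0.14 (adjusted p = 0.00185). The smallest subunit, Rpa3, had 86.6 and 105 CPM in Ctnnb1-ex3, against 104 and 124 CPM in WT (-0.26 ± 0.16, adjusted p = 0.225), and was called lower without Ctnnb1-ex3 replicate 2 (-0.39). Lig1, the ligase that seals Okazaki fragments, had 176 and 188 CPM in Ctnnb1-ex3, against 90.3 and 98.5 CPM in WT (0.95 ± 0.14, adjusted p = 0.00165). Fen1, the nuclease that trims their flaps, had 83.6 and 82.7 CPM in Ctnnb1-ex3 and 62.9 and 57.8 CPM in WT, a rise of 0.46 ± 0.14 (adjusted p = 0.0315). The Fen1 call was lost without WT replicate 1 (0.49), without WT replicate 2 (0.39), with DESeq2 (adjusted p = 0.175) and with no filter (adjusted p = 0.122).

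Of the 13 members with an E2F word in the promoter, 12 were called higher in Ctnnb1-ex3 and Orc3 was called lower. Among the 17 without one, 10 were called higher, against 20.3% of all genes tested. Of the human counterparts of these mouse genes, 6 of the 13 and 10 of the 17 were called lower in sh-Prmt1, against 20.4% of all genes tested. These are counts over genes that share the machinery they encode, and no test was made.

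Cell type markers moved along with genotype. The list of crypt base stem cell markers rose in 5 of 5 genes and summed to 987 and 1159 CPM in Ctnnb1-ex3, against 309 and 332 CPM in WT. Of the 8 small intestine markers 6 fell, and the list summed to 1201 and 1191 CPM in Ctnnb1-ex3, against 3494 and 4437 CPM in WT. The 10 epithelial markers summed to 2138 and 2945 CPM in Ctnnb1-ex3, against 3077 and 3920 CPM in WT, and 3 of them fell. The 10 leukocyte markers summed to 15.03 and 68.8 CPM in Ctnnb1-ex3, against 90.0 and 12.9 CPM in WT. The sum in WT replicate 1 was mostly Lyz2, with 323 counts there against 3 in WT replicate 2. Gzma, a lymphocyte granzyme, had 110 counts in Ctnnb1-ex3 replicate 2 and 1 in each of the other mouse libraries. Ptprc, Cd3e, Cd3g and Gzmb had 25, 14, 13 and 12 counts in Ctnnb1-ex3 replicate 2. Each had at most 4 in any other mouse library, while Cd3d was highest in Ctnnb1-ex3 replicate 1 (18 counts). The 9 stroma and endothelium markers summed to 33.1 and 30.8 CPM in Ctnnb1-ex3 and to 25.1 and 10.7 CPM in WT, with Col3a1, Dcn and Pdgfra under the floor of 3 counts. A fit without Ctnnb1-ex3 replicate 2 leaves 1 library in that group. Its median log2 fold change was 0.78 over the members and 0.05 over all genes tested. The part of any of these marker lists, leukocytes and stroma included, in the result was not tested.

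The sh-Prmt1 libraries were first checked for their target. PRMT1 had 128 and 190 estimated counts in sh-Prmt1, against 1373 and 1451 in sh-scramble, 11.2-fold lower (log2 fold change -3.48 ± 0.12, adjusted p = 1.06e-06). In the genotype experiment Prmt1 had 51.2 and 32.4 CPM in Ctnnb1-ex3 and 10.1 and 11.4 CPM in WT. Gene-level counts of Ctnnb1 do not check the exon 3 allele.

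With the hairpin against Prmt1, replication genes were lower more often than higher. All 38 passed the filter, 21 fell, 3 rose (CDT1, MCM7 and RPA2) and 14 were not called, while over all 18452 genes tested 40.9% were called, 20.4% lower and 20.5% higher. The median log2 fold change was -0.39 over the members and 0.03 over all genes tested. The members' summed level was 2258 and 2217 CPM in sh-Prmt1, against 3307 and 3429 CPM in sh-scramble, a ratio of 0.664. In 27 members both sh-Prmt1 libraries lay below both sh-scramble libraries (34.4% of all genes tested), and in 6 both lay above (36.7%). The call of 19 of the 24 held under every alternative setting, with the exceptions of ORC6, MCM6, MCM7, POLA1 and RPA2.

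**Figure D2:**
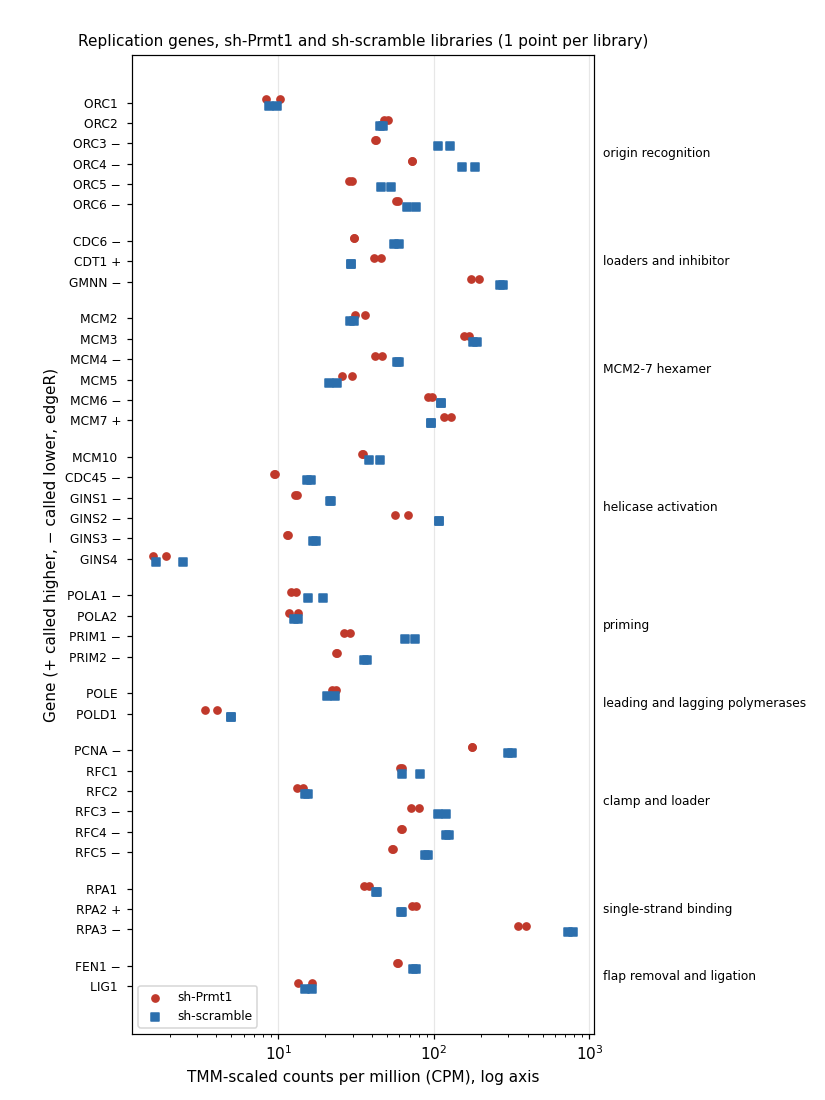
Level of each of the 38 replication genes in the 2 sh-Prmt1 libraries (red circles) and the 2 sh-scramble libraries (blue squares), as TMM-scaled CPM on a log axis, ordered by role, 1 point per library. The circles lie left of the squares in 27 genes, with wide gaps for ORC3, ORC4, PRIM1 and RPA3, and right of them in 6.

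Per transcript length, the members spanned a wide range of levels. In TPM, which scales reads by transcript length and library size, RPA3 was highest, at 382 ± 15.3 in sh-Prmt1 and 692 ± 61.0 in sh-scramble (SD, n = 2 each). PCNA had 88.1 ± 4.29 TPM in sh-Prmt1 and 139 ± 10.9 TPM in sh-scramble, and GMNN had 91.0 ± 12.7 TPM in sh-Prmt1 and 120 ± 8.29 TPM in sh-scramble. PCNA and GMNN came next in both groups, and in sh-Prmt1 they differed by less than their spread. The median member had 13.8 TPM in sh-Prmt1 and 18.5 TPM in sh-scramble. At the low end stood GINS1, ORC1, POLA1 and GINS4, with 0.986 ± 0.335 TPM for GINS4 in sh-Prmt1 and 1.63 ± 0.671 TPM in sh-scramble. GINS4 and POLA1 (1.79 ± 0.236 TPM in sh-scramble) differed by less than their spread there. CDT1 stood at rank 11 by TPM in sh-Prmt1 and at rank 25 in sh-scramble, and ORC3 at rank 22 in sh-Prmt1 and rank 5 in sh-scramble.

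Origin recognition held the largest fall. ORC3 had 41.9 and 42.5 CPM in sh-Prmt1, against 106 and 126 CPM in sh-scramble (-1.46 ± 0.10, adjusted p = 1.12e-05). ORC4 had 72.4 and 72.8 CPM in sh-Prmt1, against 153 and 185 CPM in sh-scramble (-1.22 ± 0.10, adjusted p = 2.84e-05). In both genes the sh-Prmt1 libraries nearly coincided. ORC5 had 29.7 and 28.3 CPM in sh-Prmt1 and 45.6 and 53.0 CPM in sh-scramble (-0.77 ± 0.10, adjusted p = 0.000238), and ORC6 had 57.1 and 58.7 CPM in sh-Prmt1 and 76.3 and 67.2 CPM in sh-scramble (-0.31 ± 0.09, adjusted p = 0.0224). ORC1 had 10.3 and 8.28 CPM in sh-Prmt1 and 8.66 and 9.86 CPM in sh-scramble, which overlap. ORC2 had 48.0 and 51.0 CPM in sh-Prmt1 and 45.0 and 46.8 CPM in sh-scramble (0.11 ± 0.08, adjusted p = 0.338). The ORC6 call was lost without sh-Prmt1 replicate 1 (-0.30), without sh-Prmt1 replicate 2 (-0.35), without sh-scramble replicate 1 (-0.26), with effective length offsets (-0.30) and with loess offsets (-0.22).

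ORC3 and ORC4 differed in transcript length as well as in level. Salmon's effective length of a gene is the mean length of its transcripts, weighted by their estimated abundance and less the reach of a fragment. For ORC3 it was 2163 and 2058 bases in sh-Prmt1, against 1110 and 1126 bases in sh-scramble, a ratio of 1.89 that 1.26% of all genes tested exceeded. For ORC4 it was 2814 and 3426 bases in sh-Prmt1, against 1945 and 1785 bases in sh-scramble, a ratio of 1.67 that 1.96% exceeded. Long ratios were not limited to these genes. GINS4, the least expressed member, had 878 and 1621 bases in sh-Prmt1 and 654 and 827 bases in sh-scramble, a ratio of 1.69. RFC1 had 1460 and 1326 bases in sh-Prmt1 and 1015 and 1057 bases in sh-scramble, a ratio of 1.34. The median ratio was 1.02 over all genes tested and 1.02 over the members. A longer mean transcript gives more reads per molecule, so the estimated fall of ORC3 and ORC4 per transcript was larger than their fall in reads. With effective lengths as offsets, ORC3 stood at -2.32 and ORC4 at -1.90, and in TPM the mean of ORC3 was 13.3 ± 0.120 in sh-Prmt1, against 59.3 ± 8.70 in sh-scramble. The authors' deposited table gives -2.37 for ORC3 and -1.94 for ORC4. Which transcripts of these genes were present is not in the gene-level tables.

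**Figure D3:**
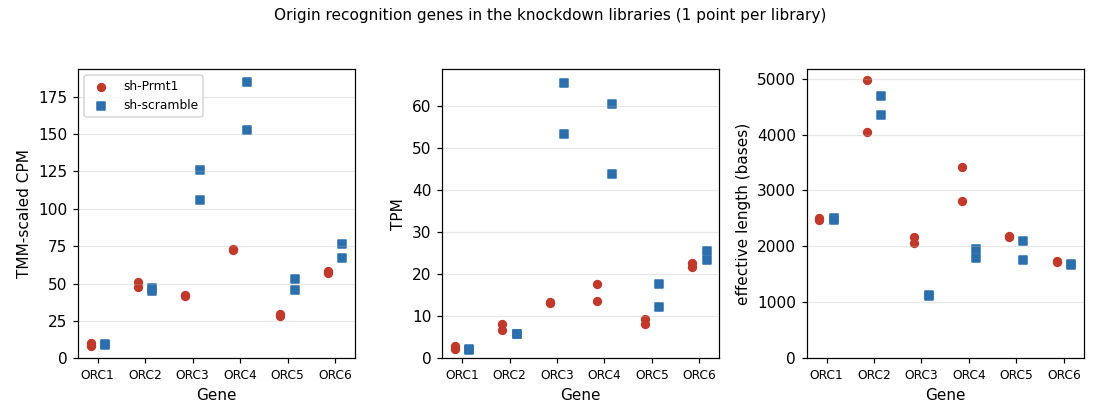
The 6 origin recognition genes in the 2 sh-Prmt1 (red circles) and 2 sh-scramble (blue squares) libraries, as TMM-scaled CPM (left), TPM (middle) and Salmon's effective length in bases (right), 1 point per library. ORC3 and ORC4 are lower in CPM and TPM and longer in effective length in both sh-Prmt1 libraries, while ORC6 has nearly the same length in all 4.

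The licensing factors moved in opposite directions. CDC6 fell, with 30.7 and 30.7 CPM in sh-Prmt1 and 59.7 and 55.0 CPM in sh-scramble (-0.90 ± 0.09, adjusted p = 4.73e-05). CDT1 rose, with 46.0 and 41.4 CPM in sh-Prmt1 and 29.2 and 29.5 CPM in sh-scramble (0.57 ± 0.09, adjusted p = 0.000799). GMNN fell, with 196 and 174 CPM in sh-Prmt1 and 266 and 280 CPM in sh-scramble (-0.56 ± 0.09, adjusted p = 0.00116). In CDC6 and GMNN both sh-Prmt1 libraries lay below both sh-scramble libraries, as in 34.4% of all genes tested. In CDT1 both lay above, as in 36.7%. The ratio of CDT1 to GMNN CPM was 0.234 and 0.238 in the sh-Prmt1 libraries, and 0.110 and 0.105 in the sh-scramble libraries.

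The MCM2-7 helicase showed no shared direction: its 6 genes had a median log2 fold change of 0.00 and summed to 507 and 463 CPM in sh-Prmt1, against 508 and 498 CPM in sh-scramble. In TPM, which was not scaled with TMM, the sum was 170 and 144 in sh-Prmt1, against 130 and 138 in sh-scramble. On that scale both sh-Prmt1 libraries were the higher ones. The effective lengths of the 6 genes hardly differed between groups, with ratios from 0.965 (MCM2) to 1.06 (MCM4). The TMM factors did differ, at 1.08 and 1.07 in sh-Prmt1, against 0.934 and 0.925 in sh-scramble. The genes of the helicase did not move alike. MCM4 fell, with 46.1 and 41.8 CPM in sh-Prmt1 and 58.0 and 59.4 CPM in sh-scramble (-0.42 ± 0.09, adjusted p = 0.00395). MCM7 rose, with 130 and 116 CPM in sh-Prmt1 and 96.4 and 95.4 CPM in sh-scramble (0.35 ± 0.09, adjusted p = 0.0109). MCM6 had 97.4 and 91.3 CPM in sh-Prmt1 and 112 and 112 CPM in sh-scramble (-0.25 ± 0.08, adjusted p = 0.0405), a call that 8 of the 11 alternatives ended, with adjusted p-values up to 0.295. MCM7 lost its call without sh-Prmt1 replicate 1 (0.26, adjusted p = 0.107). The other 3 were not called. MCM2 had 36.0 and 31.1 CPM in sh-Prmt1 and 28.9 and 30.6 CPM in sh-scramble (0.17 ± 0.10). MCM3 had 169 and 157 CPM in sh-Prmt1 and 189 and 179 CPM in sh-scramble (-0.18 ± 0.09). MCM5 had 29.6 and 25.7 CPM in sh-Prmt1 and 23.9 and 21.3 CPM in sh-scramble (0.29 ± 0.11). MCM5, with an adjusted p of 0.0539, was called higher under 4 of the alternatives, at 0.29 to 0.37.

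The helicase activators fell in 4 of 6 genes. GINS2 had 67.8 and 55.9 CPM in sh-Prmt1, against 107 and 108 CPM in sh-scramble (-0.80 ± 0.10, adjusted p = 0.000248). CDC45 had 9.58 and 9.44 CPM in sh-Prmt1, against 16.3 and 15.3 CPM in sh-scramble (-0.73 ± 0.11, adjusted p = 0.000739). Both lay lower in each sh-Prmt1 library than in each sh-scramble library, as did the remaining called subunits and 34.4% of all genes tested. GINS1 had 12.8 and 13.1 CPM in sh-Prmt1 and 21.8 and 21.6 CPM in sh-scramble (-0.74 ± 0.10). GINS3 had 11.4 and 11.5 CPM in sh-Prmt1 and 16.8 and 17.5 CPM in sh-scramble (-0.58 ± 0.11). GINS4 was the least expressed member, at 1.56 and 1.90 CPM in sh-Prmt1 and 2.45 and 1.63 CPM in sh-scramble, and its groups overlapped. MCM10 had 35.2 and 34.3 CPM in sh-Prmt1 and 44.8 and 38.1 CPM in sh-scramble (-0.25 ± 0.10, adjusted p = 0.0644), and was called lower with DESeq2's size factors (-0.28) and without sh-scramble replicate 2 (-0.38).

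Both primase subunits fell. PRIM1, the catalytic one, had 29.1 and 26.6 CPM in sh-Prmt1, against 65.1 and 75.8 CPM in sh-scramble (-1.34 ± 0.10, adjusted p = 1.6e-05). PRIM2 had 23.8 and 23.6 CPM in sh-Prmt1 and 35.6 and 37.3 CPM in sh-scramble (-0.62 ± 0.09, adjusted p = 0.000395). POLA1 had 12.0 and 12.9 CPM in sh-Prmt1 and 19.5 and 15.4 CPM in sh-scramble (-0.48 ± 0.13, adjusted p = 0.016), and its call was lost without sh-Prmt1 replicate 1 (-0.44), without sh-scramble replicate 1 (-0.35) and with effective length offsets (-0.41). POLA2 had 13.5 and 11.8 CPM in sh-Prmt1 and 13.3 and 12.7 CPM in sh-scramble. POLE and POLD1 were not called: POLE had 23.3 and 22.1 CPM in sh-Prmt1 and 20.7 and 23.3 CPM in sh-scramble, and POLD1 had 4.02 and 3.36 CPM in sh-Prmt1 and 4.94 and 4.95 CPM in sh-scramble. Their log2 fold changes were 0.05 ± 0.10 (adjusted p = 0.753) for POLE and -0.43 ± 0.17 (adjusted p = 0.0698) for POLD1, which was called lower with loess offsets (-0.48).

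Of the clamp and its loader, 4 of 6 genes fell, and the group summed to 438 and 449 CPM in sh-Prmt1, against 715 and 730 CPM in sh-scramble. PCNA had 176 and 177 CPM in sh-Prmt1 and 300 and 320 CPM in sh-scramble (-0.81 ± 0.09, adjusted p = 8.77e-05). RFC4 had 62.4 and 61.6 CPM in sh-Prmt1 and 125 and 120 CPM in sh-scramble (-0.98 ± 0.08, adjusted p = 2.47e-05). The sh-Prmt1 libraries of both genes nearly coincided. RFC5 had 54.1 and 54.3 CPM in sh-Prmt1 and 87.3 and 91.8 CPM in sh-scramble (-0.73 ± 0.08), and RFC3 had 70.9 and 80.6 CPM in sh-Prmt1 and 107 and 120 CPM in sh-scramble (-0.58 ± 0.10). Neither the large subunit RFC1 nor RFC2 was called. RFC1 had 60.5 and 62.5 CPM in sh-Prmt1 and 80.9 and 62.7 CPM in sh-scramble (-0.22 ± 0.12), and RFC2 had 14.5 and 13.2 CPM in sh-Prmt1 and 15.6 and 14.9 CPM in sh-scramble (-0.14 ± 0.11). RFC1 was called lower with effective length offsets (-0.59, adjusted p = 0.0246) and without sh-scramble replicate 2 (-0.41).

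RPA3 had 346 and 391 CPM in sh-Prmt1, against 728 and 784 CPM in sh-scramble (-1.04 ± 0.10, adjusted p = 5.19e-05). Of the other subunits of its complex, RPA2 rose, with 76.4 and 72.2 CPM in sh-Prmt1 and 62.6 and 61.4 CPM in sh-scramble (0.26 ± 0.08, adjusted p = 0.0303), and RPA1 had 38.4 and 35.8 CPM in sh-Prmt1 and 42.5 and 43.3 CPM in sh-scramble, lower in both libraries but not called (-0.21 ± 0.09, adjusted p = 0.0767). The RPA2 call was lost without any 1 of the 4 libraries, at 0.21 and 0.29 without sh-Prmt1 replicates 1 and 2 and at 0.23 without either sh-scramble library, with DESeq2 (adjusted p = 0.0578) and with no filter (adjusted p = 0.196). FEN1 had 58.9 and 58.1 CPM in sh-Prmt1 and 76.8 and 73.6 CPM in sh-scramble (-0.36 ± 0.08, adjusted p = 0.00604). LIG1 had 16.5 and 13.3 CPM in sh-Prmt1 and 16.5 and 14.8 CPM in sh-scramble, which overlap.

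In the knockdown libraries the crypt base stem cell markers summed to 131 and 127 CPM in sh-Prmt1, against 129 and 144 CPM in sh-scramble, with 2 of the 4 tested genes lower. The leukocyte markers summed to at most 7.52 CPM in sh-Prmt1 and 4.26 CPM in sh-scramble. Of the 4 tested, 2 were called higher in sh-Prmt1, against 20.5% of all genes tested. CD68 had 161 and 182 estimated counts in sh-Prmt1, against 43 and 36 in sh-scramble. LYZ had 64 and 60 in sh-Prmt1, against 18 and 22 in sh-scramble, and GZMA had 0 in all 4 libraries. The epithelial markers summed to 4750 and 4565 CPM in sh-Prmt1, against 3770 and 3727 CPM in sh-scramble, with 4 of 10 called higher and 1 lower. The small intestine markers summed to 5629 and 5724 CPM in sh-Prmt1, against 7442 and 8118 CPM in sh-scramble. That sum was mostly FABP1, with 230631 and 311128 estimated counts in sh-Prmt1, against 265998 and 330978 in sh-scramble. Of the 5 small intestine markers tested, 2 were called higher and 1 lower, and APOA1 and APOA4 had at most 4 counts in any library. The part of these marker lists in the result was not tested.

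Side by side, the experiments sorted the members differently. They share no sample, and no test links them. In the knockdown 20.4% of all genes tested were called lower and 20.5% higher. The share of all genes with each pair of calls was not counted. Of the 28 members higher in Ctnnb1-ex3, 12 were lower in sh-Prmt1: Orc6, Cdc6, Mcm4, Mcm6, Gins1, Gins2, Gins3, Pola1, Prim1, Prim2, Rfc3 and Fen1. Another 3, Cdt1, Mcm7 and Rpa2, were higher in both, and 13 were not called in the knockdown. Of the 9 members not called for genotype, 8 were lower in sh-Prmt1 (Orc4, Orc5, Gmnn, Cdc45, Pcna, Rfc4, Rfc5 and Rpa3), and Gins4 was called in neither. Orc3 was lower in both. The larger falls in sh-Prmt1 came both from members called higher in Ctnnb1-ex3 and from members not called there. Rpa3 stood at -0.26 in Ctnnb1-ex3 against WT and at -1.04 in sh-Prmt1 against sh-scramble, Rfc4 at 0.19 and -0.98, and Pcna at -0.09 and -0.81, all as log2 fold changes in that order. Prim1 stood at 0.57 in Ctnnb1-ex3 and at -1.34 in sh-Prmt1, and Cdc6 at 1.35 in Ctnnb1-ex3 and at -0.90 in sh-Prmt1. Pold1 and Pole, with 1.66 and 1.37 in Ctnnb1-ex3, were not called in sh-Prmt1.

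**Figure D4:**
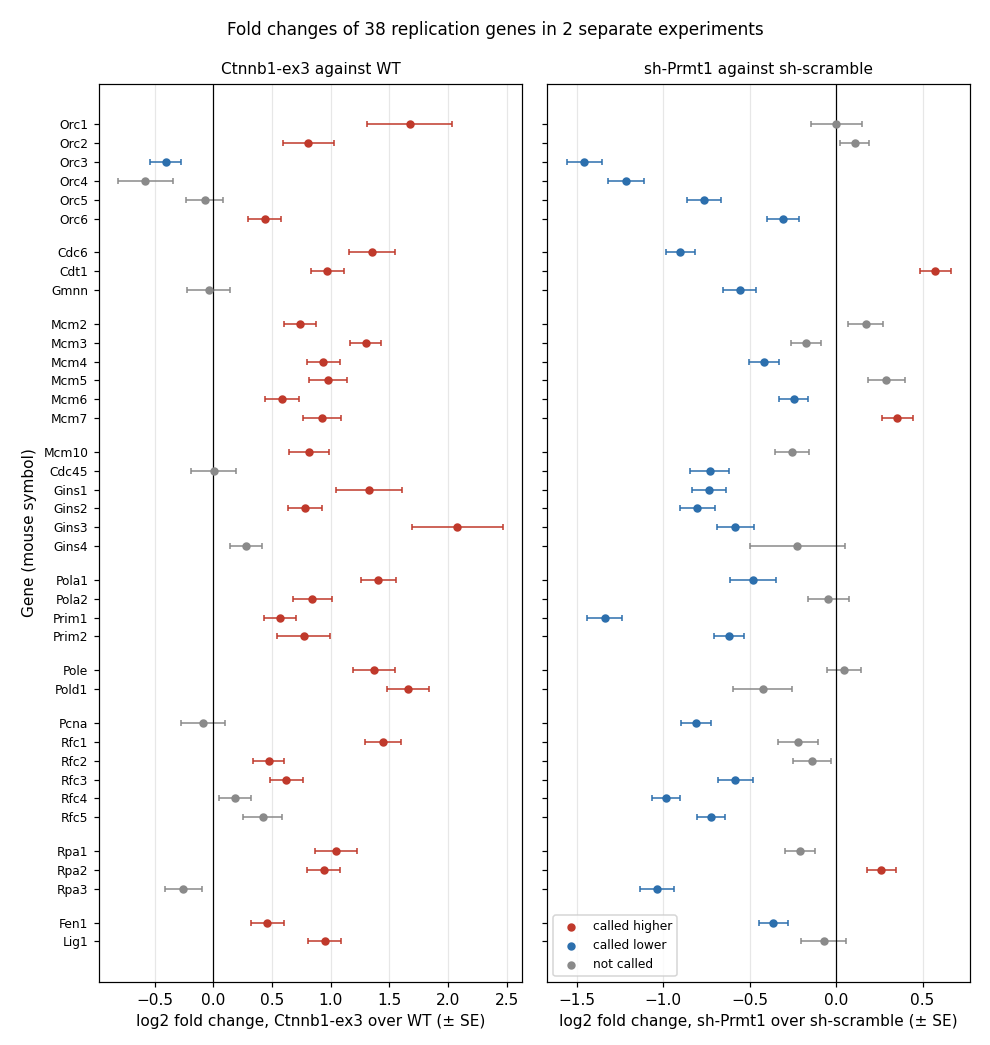
Log2 fold change (± SE) of each of the 38 replication genes, Ctnnb1-ex3 over WT on the left and sh-Prmt1 over sh-scramble on the right, from separate edgeR fits, with called-higher genes in red, called-lower genes in blue and the rest in grey. On the left 28 points are red and Orc3 is blue, and on the right 21 are blue and 3 are red; the right panel holds the human genes under the mouse symbols, and the axes differ in range.

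A wider list of 42 replication genes outside the 38, such as kinases, checkpoint mediators, accessory subunits and histone chaperones, gave similar medians. It was chosen with earlier results of these data known. In Ctnnb1-ex3, 28 of the 42 rose and 2 fell, against 20.3% and 20.5% of all genes tested. The list's median was 0.74 on the log2 scale. The largest rises were Recql4 at 3.04 ± 0.65 (adjusted p = 0.00817), a helicase of origin firing, Timeless at 2.17 ± 0.29 (adjusted p = 0.00106), a fork protection factor, and Chtf18 at 1.93 ± 0.33 (adjusted p = 0.00302), part of an alternative clamp loader. Recql4 had 10.5 and 10.02 CPM in Ctnnb1-ex3, against 1.84 and 0.380 CPM in WT, where WT replicate 2 lay under its floor. Pold4, a small subunit of polymerase δ, and Asf1b, a histone chaperone, fell by 0.75 ± 0.16 (adjusted p = 0.00854) and 0.53 ± 0.14 (adjusted p = 0.0213) on the log2 scale. In sh-Prmt1, 25 of the 42 fell and 2 rose, against 20.4% and 20.5% of all genes tested, with a median of -0.40 over the list. The largest falls were DNA2, a flap nuclease, at -0.97 ± 0.09 (adjusted p = 3.69e-05), TOP1, a topoisomerase, at -0.92 ± 0.09 (adjusted p = 6.86e-05), and MTBP, an initiation factor, at -0.87 ± 0.13 (adjusted p = 0.00061). The rises were POLE4, a small subunit of polymerase ε, at 0.54 ± 0.08 (adjusted p = 0.000637), and POLD2, an accessory subunit of polymerase δ, at 0.29 ± 0.10 (adjusted p = 0.0479).

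At an adjusted p under 0.05, the authors' deposited table for genotype holds 23 of the 38 members as higher and 0 as lower, against 8.38% and 10.3% of its genes in those directions, and gives the same call as edgeR for 32 of them. Orc3 is the member edgeR called lower there. At the same threshold the authors' deposited table for the knockdown holds 22 members as lower and 2 as higher, against 24.4% and 17.9% of its genes with an adjusted p, with the same call as edgeR for 34 and no adjusted p for ORC1. The authors' own class in that table is narrower: it marks ORC3 and ORC4 as downregulated, as it does 0.505% of all genes listed, and no other member as changed.

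Reads of some members can be shared with other genes. In the GENCODE annotation of GRCm38, exons of 11 members overlap those of a protein-coding gene on the opposite strand, the longest by 2758 bases between Gins2 and Gse1, and Fen1 shares 1909 bases with the antisense transcript Gm10143. Without strand information such reads cannot be told apart. Among the human genes listed, 6 members (PCNA, RFC3, RFC5, RPA2, RPA3 and FEN1) have pseudogenes listed under their own names, among which similar reads may have been divided, as have Pcna-ps1 and Pcna-ps2 in the mouse annotation.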

How the data were processed

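For the genotype experiment the authors deposited whole-number counts per mouse gene symbol. The lowest count is 1, held by 861 genes in all 4 libraries, and an alternative took 1 from every count. For the knockdown the authors deposited, per the file headers, Salmon gene tables with estimated counts, TPM and effective length; estimated counts were rounded to whole numbers. The labels give mouse and mm10, yet the identifiers are human Ensembl genes, and symbols came from the authors' deposited comparison, which also holds the authors' log2 fold changes, adjusted p-values and mean TPM. Salmon and DESeq2 are named in the submitters' processing notes with no role. The aligner, the annotation and the versions were not given in the sources used here.

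Each experiment was fitted alone in R 4.3.3 with edgeR 4.0.16 (TMM, filterByExpr, two-sided quasi-likelihood test, Benjamini-Hochberg adjustment over all genes tested, called under 0.05). Standard errors are the log2 fold change over the root of the F statistic. The common biological coefficient of variation was 0.171 for genotype and 0.105 for the knockdown. Alternatives were other scalings, DESeq2 1.42.0, no filter, a replicate block, effective length offsets, leaving out each library and, added after seeing the data, loess offsets. Scripts were tested on simulated data. The members, the wider replication list and the marker lists were chosen with earlier results of these data known. By the naming rule every member is accounted for, with library values for those called or at the ends of their role group, and of the wider list the 3 largest rises and falls past the threshold are named. Gene positions are from the GENCODE annotation and promoters from RefSeq, both on GRCm38. The floors cover counting error only, while the standard errors also hold the spread between libraries.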

Additional observations from a re-analysis of the deposited data

How the results depend on the processing

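Of 418 genotype values of single members under alternatives, 357 kept direction and side of the threshold, 36 lost a call, 10 gained one and 15 turned in sign. For the knockdown 375, 23, 9 and 11 of 418 did so. Every turned value belonged to a member called neither with nor without the change: 4 for genotype and 5 for the knockdown. As log2 fold changes, upper-quartile factors put Orc5 at 0.16, Gmnn at 0.19, Pcna at 0.15 and ORC1 at 0.015. Loess offsets put Gmnn at 0.23, Pcna at 0.31 and Cdc45 at -0.17, and Cdc45 stood at -0.023 with DESeq2's size factors and at -0.022 with its test. Effective length offsets put ORC1 at 0.058, POLA2 at 0.044 and LIG1 at 0.0097. Leaving out 1 library moved Orc5 between -0.22 and 0.061, Gmnn between -0.28 and 0.17, Cdc45 between -0.086 and 0.062 and Pcna between -0.32 and 0.11. It moved ORC1 between -0.17 and 0.14, GINS4 between -0.51 and 0.047, POLA2 between -0.16 and 0.036, POLE between -0.084 and 0.12 and LIG1 between -0.25 and 0.061. Leaving out 1 library moved the number of members called for genotype between 16 and 31, those called higher between 16 and 29 and those called lower between 0 and 2; over all genes tested the share called moved between 18.4% and 56.0%, lowest without WT replicate 2, where 16 members were called, and 49.7% without Ctnnb1-ex3 replicate 1, where 31 were. With upper-quartile factors, DESeq2 and loess offsets, 0 members were lower for genotype, and the 1 member of edgeR's main result, Orc3, was not called. Over all genes tested 13.5%, 18.8% and 18.2% were called lower in these settings, in that order. Upper-quartile factors moved the median of all genes to 0.26 and that of the members to 1.03. Leaving out 1 library moved the knockdown members called higher between 1 and 3. With the replicate number as a block, 30 members were called for genotype (28 higher, 2 lower, Orc4 being added) and 24 for the knockdown (4 higher, 20 lower, MCM5 added and MCM6 lost). For genotype the block raised calls over all 12976 genes tested from 5291 to 6484, and lower calls from 2654 to 3503. For the knockdown it took calls over all 18452 genes tested from 7554 to 7105. Same-numbered libraries deviated together with a correlation of 0.0706 for genotype and -0.0515 for the knockdown, over 2 pairs each, so the numbers were not taken to pair the samples. Whether the gain in genotype calls reflects pairing was not tested. The causes were not tested. The mouse libraries, at 2951887 to 6015933 counts, are shallower than the knockdown libraries, at 39608249 to 53193449, which limits what the smaller genotype changes can show.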
